A study of Mus musculus with 31 samples.

Results

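The mural, meningeal and matrix genes considered here were 10 genes of blood vessel walls and connective tissue: Notch3, Pdgfrb, Rgs5, Acta2, Myh11, Col1a1, Col15a1, Dcn, Lum and Lamc1. Their members were all probe sets annotated with a single one of these symbols, which gave 21 of the 45101 probe sets on the array and 10 of the 18193 genes with such a probe set. A probe set is a group of short oligonucleotides that are read together as 1 intensity. The intensity, the percentile of each probe set within its array and the variation between arrays were read on all 31 arrays of the series.

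The arrays were hybridised with biotin-labelled RNA that the labels assign to mouse CD4 T cells sorted from spleens and lymph nodes, 1 array per sample. All cells came from mice whose Foxp3 locus also encodes EGFP, either next to intact Foxp3 (Foxp3/EGFP) or with a mutant Foxp3 (Foxp3deltaEGFP). Some arrays were labelled as cells changed in culture by anti-CD3 and anti-CD28 antibodies with TGF-beta. Of these, 2 arrays were IL-2-cultured induced Foxp3-delta cells and 2 were IL-2-cultured induced Treg, both kept for 1 week in IL-2 at 100 units/ml after induction, while 3 were induced Foxp3-delta cells and 5 were induced Treg, the reporter-positive cells after 3 days of induction. A further 3 arrays were failed induced Treg, the cells of the same treatment that stayed negative for the reporter. The labels also give 4 arrays of activated T cells, treated with both antibodies and no TGF-beta, and 3 arrays of activated natural Treg, treated with both antibodies and TGF-beta. Cells taken without culture made up 2 arrays of natural Foxp3-delta cells, from heterozygous females, 4 arrays of natural Treg and 3 arrays of conventional T cells. The Foxp3deltaEGFP allele marks cells that switch on the locus but lack functional Foxp3, so those cells are no ordinary regulatory T cells.

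The labelled cell type was checked against marker genes on the same arrays, and the data went against it. Taking the brightest probe set of each gene, the 9 measured T cell markers had a median percentile of 24.5 within the array, and 1 of them lay above the middle of the array. Foxp3 itself averaged 12.7 ± 2.35 intensity units (SD, n = 31), while the 95th percentile of 27 bacterial control probe sets, which have no mouse target, was 14.3. Markers of neurons, myelin and astrocytes had median percentiles of 99.2, 99.96 and 99.2, and skeletal muscle markers 45.1. The groups are therefore called by their labels below ("arrays labelled induced Treg"), and nothing is said of T cells. The deposited array medians ranged 22.2 to 55.4 intensity units. The arrays were clustered by their median, their 99th percentile and their hybridisation controls and cut into 3 sets of 15, 6 and 10. The number of sets was chosen, and the medians of sets 1 and 2 overlap (37.0 to 47.7 and 40.8 to 55.4). These array sets were defined from the data, since the labels name no batch, and they are unevenly spread over the label groups: all arrays labelled conventional T, natural Treg and IL-2-cultured lie in set 1, all activated natural Treg arrays in set 3, and the other groups span sets. Nothing in the labels says that the arrays of a group came from separate animals or cultures. The p-values therefore rest on the spread among samples that may be technical repeats, and the number of arrays limits the precision.

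Mural cells are the pericytes of capillaries and the smooth muscle cells of larger vessels. Endothelial cells recruit and keep them by releasing PDGF-B, which acts on the receptor encoded by Pdgfrb, and by presenting Jagged ligands to the receptor encoded by Notch3, whose cleaved tail enters the nucleus and joins the DNA-binding protein RBPJ. In nervous tissue most fibrillar collagen and its small leucine-rich proteoglycans lie in the meninges and around vessels, and laminins and collagens of the basement membrane lie beneath the endothelium and around mural cells. In bulk RNA such as this, fewer cells of a type and less RNA per cell cannot be told apart.

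**Figure D1:**
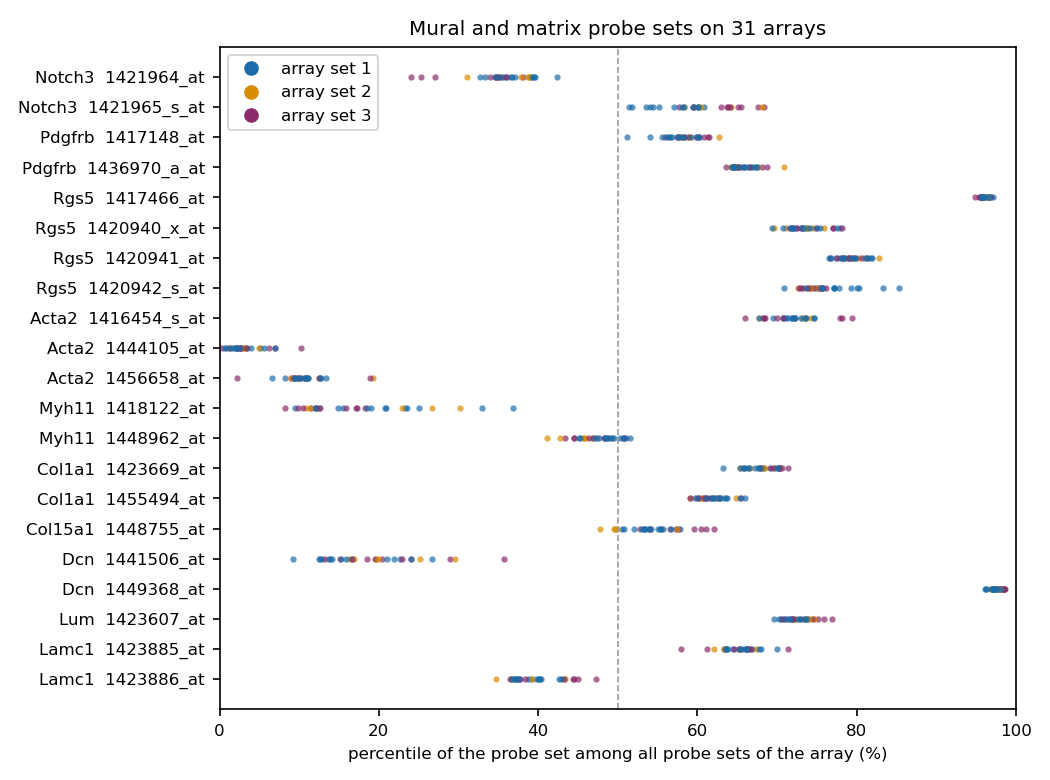
Percentile (%) of each of the 21 mural and matrix probe sets among all probe sets of its array, with 1 point per array (n = 31) coloured by array set. The probe sets of Dcn and Rgs5 at 97.5% and 96.0% on average lie at the right edge on every array, and additional probe sets of Acta2, Myh11 and Dcn average below 20%.

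The receptors of the mural cells gave middling signals. Notch3 (probe set 1421965_s_at) averaged 78.4 ± 28.1 intensity units (SD, n = 31) as deposited, with a lowest value of 34.3 and a highest of 177, and its mean percentile was 60.1. Pdgfrb (1436970_a_at) averaged 113 ± 30.1 units, between 50.7 and 214, at a mean percentile of 65.8. Both lay above the middle of the array on average, while a second Notch3 probe set (1421964_at) lay at percentile 35.4 and a second Pdgfrb probe set (1417148_at) at 58.2. Percentiles of different probe sets are not compared as amounts of RNA, because each binds its target with its own strength.

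Rgs5, which encodes a protein that shortens G protein signalling and is widely used to mark pericytes, had a bright probe set (1417466_at) at 1719 ± 466 units (945 to 2796) and a mean percentile of 96.0. The other 3 Rgs5 probe sets, which share 1 sequence record, averaged 194, 288 and 229 units at percentiles 73.6, 79.3 and 75.9. The smooth muscle genes were read less clearly. Acta2, encoding smooth muscle actin, gave 175 ± 50.6 units (64.0 to 279) at percentile 72.0 with probe set 1416454_s_at, whereas 1444105_at and 1456658_at averaged 7.76 and 9.69 units and exceeded the 95th percentile of the bacterial controls of the same array on 0 of the 31 arrays. Myh11, encoding the myosin heavy chain of smooth muscle, gave 34.5 ± 7.23 units (20.4 to 50.1) at percentile 47.4 with 1448962_at and was the only member whose brightest probe set averaged below the middle of the array.

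The matrix genes spanned most of the intensity scale. Dcn, encoding decorin, a proteoglycan that binds collagen fibrils, averaged 2828 ± 1106 units (1587 to 6027) at percentile 97.5 with probe set 1449368_at, and a second probe set averaged 12.1 units. Lum, encoding the related proteoglycan lumican and annotated next to Dcn on chromosome 10, averaged 181 ± 41.9 units at percentile 72.7. Col1a1, encoding a chain of type I collagen, averaged 132 ± 29.0 units at percentile 68.2, and its second probe set lay at 62.0. Col15a1, a collagen of the basement membrane zone, averaged 52.5 ± 10.0 units (34.1 to 84.1) at percentile 54.7, and Lamc1, the gamma 1 chain shared by most laminins, averaged 109 ± 29.6 units at percentile 65.3. In all, 14 of the 21 probe sets averaged above the middle of the array and 2 above percentile 90, and 16 exceeded that bacterial control level on every array.

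The whole group of 10 genes lay close to the rest of the array. Taking the brightest probe set per gene, the members' median percentile was 67.4 (64.9 to 70.8 over the arrays), against 65.1 over all 18193 genes. Among lists of related genes the median percentile was 67.7 for 12 other pericyte genes, 66.0 for 13 smooth muscle genes and 65.5 for 14 meningeal genes. It was 63.6 for 10 interstitial collagens (61.1 to 66.2 over the arrays) and 61.8 for 8 small leucine-rich proteoglycans (57.7 to 66.2), ranges that overlap that of the members. It was 60.1 for 16 basement membrane genes (55.3 to 63.9) and 76.5 for 13 endothelial genes (71.6 to 82.3). Single genes stood higher, such as the pericyte gene Vtn at 95.6, Rgs4, annotated next to Rgs5, at 94.9, and the meningeal gene Ptgds, whose prostaglandin synthase is also made by oligodendrocytes, at 99.9. Kera, annotated next to Lum and encoding the corneal proteoglycan keratocan, lay at 0.66.

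Variation between arrays was measured after quantile normalisation, which gives all arrays the same distribution, on log2(intensity + 16). Of the 21 probe sets, 15 passed the filter on low values and covered all 10 genes, and 24669 probe sets passed in all. The SD over the 31 arrays ranged 0.14 to 0.36 for the 15 probe sets, against a median of 0.16 over all tested probe sets. The probe sets that varied most were those of Notch3 (SD 0.36), Dcn (0.35), Rgs5 1420942_s_at (0.30) and Acta2 (0.28), all 4 above percentile 90 of the SD over tested probe sets. The label groups took up 76.8% of the variance of Col15a1, 65.5% of that of Notch3 and 58.4% of that of Lamc1, beside a median of 40.5% over all tested probe sets. The array sets took up 39.2% of the variance of Col15a1, 49.97% of Notch3, 4.23% of Lamc1 and 52.4% of Dcn, beside a median of 23.4%. Dcn averaged 11.18, 11.38 and 11.74 in sets 1, 2 and 3 on this log2 scale, and Lamc1 7.00, 6.90 and 6.92.

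Differences between label groups were tested with limma, a linear model over all 31 arrays with 1 mean per group, and called where the Benjamini-Hochberg adjusted p over the 24669 probe sets was under 0.05. Over all 10 groups at once, 12.4% of tested probe sets were called, and of the 15 member probe sets 3 were: Col15a1 (limma adjusted p = 0.00183), Notch3 (0.0131) and Lamc1 (0.0482). The Lamc1 call was lost in 24 of the 31 fits with 1 array left out (limma adjusted p 0.0173 to 0.181), while Col15a1 and Notch3 kept theirs in all 31 (up to 0.00495 and 0.0337). With the array set as a further term, 1 member probe set was called, Col15a1 (limma adjusted p = 0.0479), while Notch3 had 0.344 and Lamc1 0.170.

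Notch3 moved most. The values below are log2(intensity + 16) after normalisation. On the arrays labelled IL-2-cultured induced Foxp3-delta Notch3 had 6.37 and 6.03, on IL-2-cultured induced Treg 6.27 and 5.91, and on induced Foxp3-delta 6.86, 6.47 and 7.23. The 5 arrays labelled induced Treg had 6.51, 6.58, 6.37, 6.52 and 6.82, and the failed induced Treg arrays 6.47, 6.07 and 6.76. The activated arrays were higher than the conventional T arrays and partly overlapped the rest: activated T had 6.54, 7.17, 6.32 and 6.94, and activated natural Treg 6.46, 6.83 and 6.85. Natural Foxp3-delta arrays had 7.20 and 6.97, natural Treg arrays 6.51, 6.46, 6.35 and 6.51, and conventional T arrays 5.89, 6.14 and 6.08.

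By group means the order for Notch3 was natural Foxp3-delta (7.09 ± 0.16), induced Foxp3-delta (6.85 ± 0.38), activated T (6.74 ± 0.38), activated natural Treg (6.71 ± 0.22), induced Treg (6.56 ± 0.16), natural Treg (6.46 ± 0.07), failed induced Treg (6.43 ± 0.35), the IL-2-cultured induced Foxp3-delta (6.20 ± 0.24) and Treg (6.09 ± 0.26), and conventional T (6.04 ± 0.13; SD, n as above). Each neighbouring pair in that order lay closer together than the larger of its SDs. Notch3 also followed the array sets, with means of 6.28, 6.66 and 6.83 in sets 1, 2 and 3. The part of the array sets in its group differences was not tested apart from the fit with the set as a term.

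The sequence before the Notch3 gene is printed because its probe set varied most, and that of Rgs5 as the pericyte marker to set beside it. RefSeq promoter sequences (GRCm38.p6) were matched for 4 of the 10 members. The windows are chr17:32166897-32167140 (minus strand, 244 bases) for Notch3 and chr1:169655251-169655500 (plus strand, 250 bases) for Rgs5, both ending 1 base before the annotated start of the gene and printed 5′ to 3′ in the direction of the gene. Capitals mark GC boxes (GGGCGG or CCGCCC) and SMAD elements (CAGAC or GTCTG), searched on both strands; no marked motifs overlap.
Notch3: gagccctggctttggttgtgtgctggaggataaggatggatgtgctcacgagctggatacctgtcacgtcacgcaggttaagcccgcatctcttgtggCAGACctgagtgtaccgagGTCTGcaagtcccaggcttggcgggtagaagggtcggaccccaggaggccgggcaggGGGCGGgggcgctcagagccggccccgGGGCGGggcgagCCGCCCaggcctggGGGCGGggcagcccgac
Rgs5: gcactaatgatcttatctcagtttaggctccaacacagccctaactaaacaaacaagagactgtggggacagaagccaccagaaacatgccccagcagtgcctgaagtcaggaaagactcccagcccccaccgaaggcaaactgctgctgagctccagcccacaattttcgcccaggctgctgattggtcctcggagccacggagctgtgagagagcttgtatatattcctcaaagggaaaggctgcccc
The Notch3 window held 4 GC boxes and 2 SMAD elements, and the Rgs5 window 0 of either. Among 32851 RefSeq promoter windows of 250 bases, 32.7% held a GC box and 4.09% held 4 or more, and 42.2% held a SMAD element and 11.7% held 2 or more. Neither window held a CArG box, the motif of smooth muscle genes, found in 1.47% of windows, or the RBPJ motif GTGGGAA (or TTCCCAC), found in 5.42%. These are matches of letters within these windows.

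**Figure D2:**
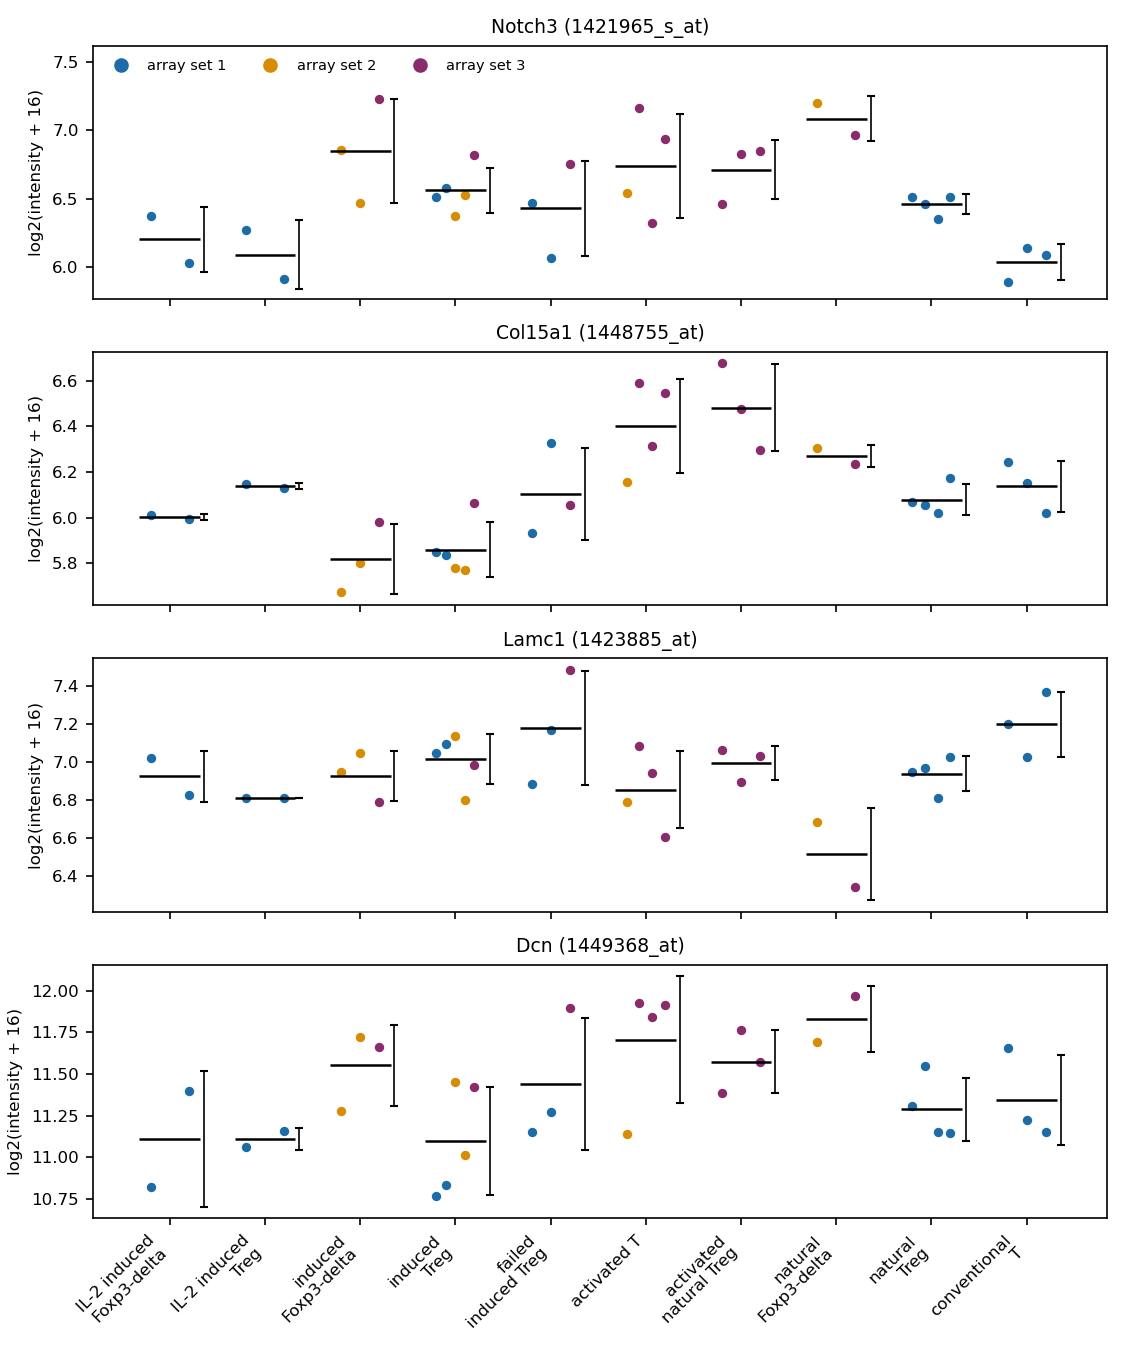
Log2(intensity + 16) after quantile normalisation for Notch3, Col15a1, Lamc1 and Dcn in the 10 label groups; points are arrays coloured by array set, horizontal lines are group means and bars 1 SD (2 to 5 arrays per group). Notch3 was lowest on the arrays labelled conventional T (mean 6.04) and highest on natural Foxp3-delta (7.09), and Dcn shows the higher values of array set 3.

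Among arrays labelled as cells taken without culture, Notch3 probe set 1421965_s_at was higher on the natural Foxp3-delta arrays than on the conventional T arrays. The deposited intensities were 177 and 85.6 units on natural Foxp3-delta arrays, against 51.7, 60.7 and 56.6 units on conventional T arrays, and the groups did not overlap. The log2 difference was 1.05 (SE 0.22, 95% interval 0.60 to 1.497, limma adjusted p = 0.0441), and Notch3 was the only 1 of the 15 member probe sets called, where 0.15% of all tested probe sets were. Leaving out any 1 of the 5 arrays ended the call (adjusted p 0.0877 to 0.362), although the difference stayed between 0.93 and 1.17. The groups share no array set, and with the set as a term the difference was 0.88 (adjusted p = 0.460). A pseudocount of 1 in place of 16, no filter on low values and no scaling each ended the call too (adjusted p = 0.0515, 0.0659 and 0.894). The dimmer Notch3 probe set 1421964_at did not pass the filter and did not show this difference. On the log2 scale it averaged 5.21 on natural Foxp3-delta arrays and 5.22 on conventional T arrays.

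In the same comparison, Lamc1 had 6.69 and 6.34 on natural Foxp3-delta arrays, against 7.20, 7.03 and 7.37 on conventional T arrays. The values did not overlap, and the difference of -0.69 (SE 0.15) had a limma adjusted p of 0.0540, just outside the threshold. Over the 7 other settings its adjusted p ranged 0.0338 to 0.894: it passed when array medians were made equal (0.0456), with 1 probe set per gene (0.0490) and with the replicate number as a block (0.0338), and did not pass with a pseudocount of 1 (0.0566), without the filter (0.0659), with the array set as a term (0.276) or as deposited (0.894). Member probe sets without overlap between these groups numbered 5 of 15, beside 37.4% of all tested probe sets. The second Lamc1 probe set, 1423886_at, did not pass the filter. It averaged 5.26 on natural Foxp3-delta arrays, 5.35 on conventional T arrays and 5.22 on natural Treg arrays.

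The comparison of natural Treg with conventional T arrays lay wholly in array set 1. There 0 of 15 member probe sets were called by limma (0.00405% of all tested; 624 of 24669 had an unadjusted p under 0.05). The member with the smallest p was Rgs5 1420942_s_at, with 8.23, 8.83, 8.02 and 7.88 on natural Treg arrays, against 7.87, 7.45 and 7.70 on conventional T arrays. The natural Treg arrays were all higher, and the difference was 0.57 (SE 0.17, adjusted p = 0.9999), or 0.37 without natural Treg array 2. Notch3 was also higher on every natural Treg array, by 0.42 (SE 0.18), and did not pass. Member probe sets without overlap numbered 2 of 15 here, beside 6.38% of all tested. Between natural Foxp3-delta and natural Treg arrays, 0 of 15 were called by limma (0.0892% of all tested, 22 probe sets, and 3826 at an unadjusted p under 0.05). The smallest p was that of Lamc1, at 6.69 and 6.34 on natural Foxp3-delta arrays against 6.95, 6.97, 6.81 and 7.03 on natural Treg arrays, a difference of -0.43 (SE 0.14, adjusted p = 0.153) that was -0.25 without natural Foxp3-delta array 2.

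Arrays labelled activated were compared with arrays labelled as the same cells without culture. By the labels, activated T cells had no TGF-beta and activated natural Treg had it. Antibodies, culture and TGF-beta therefore cannot be told apart on the activated natural Treg arrays. On activated T arrays, Notch3 was higher than on conventional T arrays with no overlap (values above), by 0.70 (SE 0.18, 95% interval 0.33 to 1.08, limma adjusted p = 0.0251), the only 1 of 15 member probe sets called beside 6.17% of all tested. Member probe sets without overlap numbered 2 of 15 here, beside 21.9% of all tested. The call was lost without activated T array 2 or 4 or any of the 3 conventional T arrays (difference 0.56 to 0.84 over all single arrays left out). The groups share no array set, and the difference was 0.46 (adjusted p = 0.535) with the set as a term and 0.22 (adjusted p = 0.438) on the deposited scale, on which the median of all tested probe sets was itself -0.39. The dimmer Notch3 probe set 1421964_at ran the other way, at 5.09 on activated T arrays and 5.22 on conventional T arrays.

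On activated natural Treg arrays, Col15a1 had 6.68, 6.47 and 6.30, against 6.07, 6.05, 6.02 and 6.17 on natural Treg arrays, with no overlap. Between these groups 1 of 15 member probe sets did not overlap, beside 29.1% of all tested. Col15a1 rose by 0.40 (SE 0.11, 95% interval 0.18 to 0.62, limma adjusted p = 0.0138) after scaling, but on the deposited scale its difference was -0.21, where the median of all tested probe sets was -0.54. It was the only 1 of 15 member probe sets called, beside 15.6% of all tested. The call was lost without activated natural Treg array 1 (differences of 0.31 to 0.50 over single arrays left out) and with the array set as a term (0.33, adjusted p = 0.326), and the groups share no set.

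TGF-beta was the stated difference between induced Treg and activated T cultures, beside the sort for the reporter. Col15a1 had 5.85, 5.83, 5.78, 5.77 and 6.07 on induced Treg arrays, against 6.16, 6.59, 6.31 and 6.55 on activated T arrays. Every induced Treg array was lower, and Col15a1 fell by 0.54 (SE 0.09, limma adjusted p = 0.0193), the only 1 of 15 member probe sets called, beside 0.0568% of all tested (14 probe sets; 1 without induced Treg array 4 and 226 without activated T array 1). Member probe sets without overlap numbered 1 of 15, beside 1.95% of all tested. Within array set 2 the difference was -0.38 (2 arrays against 1) and within set 3 it was -0.42 (1 against 3), and with the set as a term it was -0.48 (adjusted p = 0.0664). The call was lost without induced Treg array 2 or 4 or activated T array 2, 3 or 4, over which and the other arrays the difference ranged -0.63 to -0.48, and on the deposited scale the difference was -0.10 (adjusted p = 0.535), where the median of all tested probe sets was 0.45. Dcn was also lower on average, with 10.77, 10.83, 11.45, 11.01 and 11.42 on induced Treg arrays against 11.14, 11.93, 11.84 and 11.91 on activated T arrays. These overlap, and the difference of -0.61 (SE 0.18, limma adjusted p = 0.270) did not pass. Within array set 2 the direction was not kept, with 11.45 and 11.01 on induced Treg arrays beside 11.14 on activated T. Within set 3 Dcn had 11.42 on induced Treg beside 11.93, 11.84 and 11.91. The part of the array sets in this difference was not tested.

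**Figure D3:**
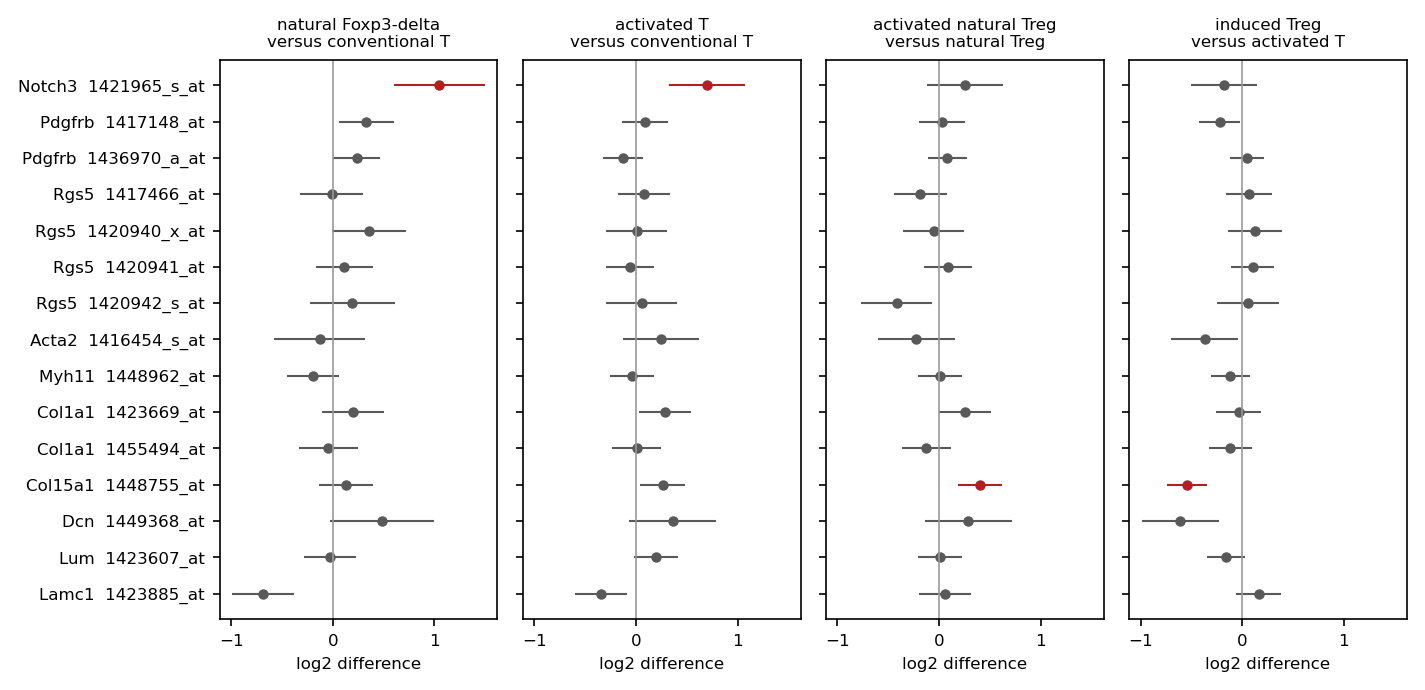
Log2 differences (points) with 95% intervals (bars) for the 15 tested member probe sets in the 4 comparisons in which one was called; red marks calls at limma adjusted p under 0.05. Notch3 lies at 1.05 and 0.70 in the first and second panels, and Col15a1 at 0.40 and -0.54 in the third and the fourth.

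No member probe set was called in the other comparisons. Between induced Treg and failed induced Treg arrays, limma called 0 of 15 members and 0% of all tested probe sets (1105 at an unadjusted p under 0.05). The smallest p was that of Col15a1, at the induced Treg values above against 5.93, 6.33 and 6.06 on failed induced Treg arrays, an overlapping difference of -0.25 (SE 0.10) that was -0.13 without failed induced Treg array 2. Between induced Foxp3-delta and induced Treg arrays, limma again called 0 of 15 members and 0% of all tested (751 at an unadjusted p under 0.05). Dcn had the smallest p, with 11.28, 11.72 and 11.66 on induced Foxp3-delta arrays and a difference of 0.46 (SE 0.20). With the array set as a term the difference was 0.27. Within array set 2 it was 0.27 (2 arrays against 2) and within set 3 it was 0.24 (1 against 1). The 3 induced Foxp3-delta arrays lie within or above the range of the induced Treg arrays.

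Arrays labelled IL-2-cultured were compared with induced arrays of the same labelled allele. Limma called 0 of 15 members between IL-2-cultured induced Treg and induced Treg arrays, beside 1.79% of all tested (441 probe sets, or 11 to 531 with single arrays left out; 3942 at an unadjusted p under 0.05). Rgs5 1420942_s_at had the smallest p, with 8.63 and 7.88 on the IL-2-cultured arrays, against 8.03, 7.82, 7.72, 7.60 and 7.79 on induced Treg arrays, an overlapping difference of 0.46 (SE 0.19, adjusted p = 0.210). The difference was 0.09 without the first IL-2-cultured array and 0.84 without the second. Between IL-2-cultured induced Foxp3-delta and induced Foxp3-delta arrays, limma called 0 of 15, beside 0.332% of all tested (82 probe sets, or 1 to 18 with single arrays left out; 3927 at an unadjusted p under 0.05), and Notch3 had the smallest p. Its values of 6.37 and 6.03 lay below all 3 induced Foxp3-delta values, with a difference of -0.65 (SE 0.22, adjusted p = 0.141). Between these groups 5 of 15 member probe sets did not overlap, beside 38.1% of all tested. The test of whether the difference between IL-2-cultured and induced arrays differed between the 2 labelled alleles called 0 of 15 members and 0% of all tested by limma (667 at an unadjusted p under 0.05). Its smallest p among the members was that of Rgs5 1420941_at, at 0.29 (SE 0.19), or 0.07 to 0.51 with single arrays left out, lowest and highest without IL-2-cultured induced Treg array 1 and 2.

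Apart from Notch3 and Col15a1, no member was called in any of the 10 comparisons. The group means of the members given few values above spanned 0.38 for Pdgfrb 1436970_a_at, 0.30 for Myh11, 0.43 for Lum, 0.40 for Col1a1 1423669_at, 0.59 for Acta2 and 0.25 for Rgs5 1417466_at on the log2 scale. Acta2 was highest on activated T arrays, at 7.68, 8.10, 8.12 and 7.37, and lowest on activated natural Treg arrays, at 7.02, 7.44 and 7.22, which overlap. A p that misses the threshold does not show that these genes were equal in the groups.

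**Figure D4:**
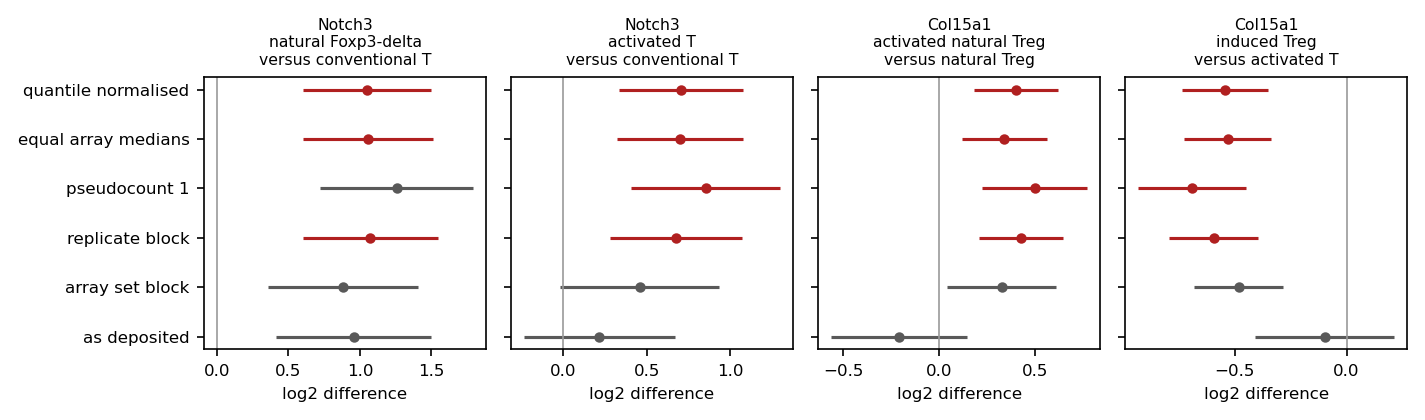
Log2 differences (points) with 95% intervals (bars) for the 4 called member comparisons under 6 ways of treating the arrays; red marks calls at limma adjusted p under 0.05. All 4 keep their direction with the array set as a block but none is called, and Col15a1 in activated natural Treg against natural Treg is -0.21 on the deposited scale.

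The partners of these genes in their pathways were read from lists of related genes. In the Notch list, 23 probe sets of 15 genes were tested, and over the 10 comparisons 6 calls were higher and 3 lower. On activated T arrays against conventional T arrays, where Notch3 was called, 3 of 23 probe sets were called, beside 6.17% of all tested. Hey2, a nuclear target of Notch, was higher by 0.65 (limma adjusted p = 0.0399), the receptor Notch2 by 0.35 (0.0187) and the receptor Notch1 by 0.26 (0.0396). The median of the list was 0.06 beside 0.00 over all tested. On activated natural Treg arrays against natural Treg arrays, 5 of 23 were called, beside 15.6% of all tested. Notch1 rose by 0.34, Notch2 by 0.28 and Hey2 by 0.54, while Maml1, a coactivator of the Notch complex, fell by 0.61. The target Hes5 fell by 0.51 with a probe set other than its brightest. Notch3 there was 0.25 (SE 0.18) and did not pass. In both comparisons the groups share no array set. Between natural Foxp3-delta and conventional T arrays 0 of 23 probe sets of the list were called, beside 0.15% of all tested. The Notch3 difference was larger there.

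In the PDGF list of 10 tested probe sets from 6 genes, Pdgfb, the ligand of the receptor encoded by Pdgfrb, was the only gene called. It was 0.58 higher on activated T arrays than on conventional T arrays (SE 0.11, limma adjusted p = 0.00475) and 0.40 higher on activated natural Treg than on natural Treg arrays (0.0158). In each, 1 of the 10 probe sets was called, beside 6.17% and 15.6% of all tested. Pdgfb was also called as lower on arrays labelled IL-2-cultured than on their induced arrays, at -0.56 for induced Treg (0.0152) and -0.68 for induced Foxp3-delta (0.0216). There 1 of 10 was called in each too, beside 1.79% and 0.332% of all tested. Pdgfrb itself was called in none of these comparisons. The activated and the unactivated groups, and the IL-2-cultured and the induced Foxp3-delta groups, lie in different array sets.

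In the other lists most calls were on activated natural Treg arrays against natural Treg, where 15.6% of all tested probe sets were called. Of 19 tested pericyte probe sets 2 were called there and 0 in the other comparisons: Vtn fell by 0.38 with a probe set other than its brightest, and Ndufa4l2 fell by 0.33. Of 18 smooth muscle probe sets 4 were called there: Tpm2 rose by 0.91, and Tpm1 (-0.67 and -0.50) and Des (-0.31) fell. Of 17 basement membrane probe sets 3 were called there, and 1 on activated T arrays against conventional T, where 6.17% of all tested were. Lama4 and Lama5, chains that pair with the laminin gamma 1 chain, rose by 0.54 and 0.49 on activated natural Treg arrays, where Col18a1, the closest relative of Col15a1, fell by 0.62, and Col4a2 fell by 0.41 on activated T arrays. Of 19 endothelial probe sets 2 were called on activated T arrays against conventional T. There the adhesion gene Pecam1 fell by 0.61, and the VEGF receptor gene Flt1 rose by 0.70 with a probe set other than its brightest. On activated natural Treg arrays 1 was called, the junction gene Cdh5 (0.39). The transporter gene Abcb1a was higher on both IL-2-cultured groups than on their induced groups, by 0.54 on induced Treg and 0.73 on induced Foxp3-delta. In those comparisons 1.79% and 0.332% of all tested were called. Col6a2 gave both calls of the interstitial collagens, at 0.33 on activated T arrays against conventional T and -0.62 with another probe set on IL-2-cultured induced Treg against induced Treg. Prelp gave the only call of the small leucine-rich proteoglycans (-0.39, activated natural Treg), and 0 of 12 meningeal probe sets were called by limma in any of the 10 comparisons. Markers of other tissues moved as well: Cd3e was 0.81 and 0.59 higher on activated T and activated natural Treg arrays, and the neuron marker Rbfox3 fell by 0.70 on activated T arrays. On activated natural Treg arrays the myelin gene Cnp rose by 0.38, the 2 called probe sets of the myelin gene Mbp stood at 0.50 and -0.30, and Gfap of astrocytes fell by 0.43. The Cnp, Mbp and Gfap calls were of probe sets other than the brightest of each gene. Summed over the 10 comparisons limma made 2 calls among 3 tested T cell probe sets, 1 among 10 of neurons, 3 among 16 of myelin, 1 among 8 of astrocytes and 0 among 2 of skeletal muscle. Both T cell calls were of the same Cd3e probe set. All these calls fell in the 2 activated comparisons, where 6.17% and 15.6% of all tested probe sets were called. The part of these markers in the members' differences was not tested.

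The members did not move as 1 group over the 31 arrays. Over the 45 pairs of genes, taking the brightest probe set of each, Pearson's r ranged -0.40 to 0.52 with a median of 0.06, and 0 pairs passed the Benjamini-Hochberg correction of the permutation p. The highest was Notch3 with Col1a1 (r = 0.52, Spearman's rho = 0.49, permutation p = 0.00302 and adjusted p = 0.104), at 0.61 without the 2 farthest arrays and 0.64, 0.22 and 0.09 within array sets 1, 2 and 3. Col15a1 with Dcn had r = 0.50 (rho = 0.46, permutation p = 0.00461, adjusted p = 0.104), at 0.57, 0.25 and 0.04 within the sets. Notch3 with Dcn had r = 0.46 over all arrays but -0.48 within set 1. The neighbouring proteoglycan genes Dcn and Lum had r = 0.34.

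**Figure D5:**
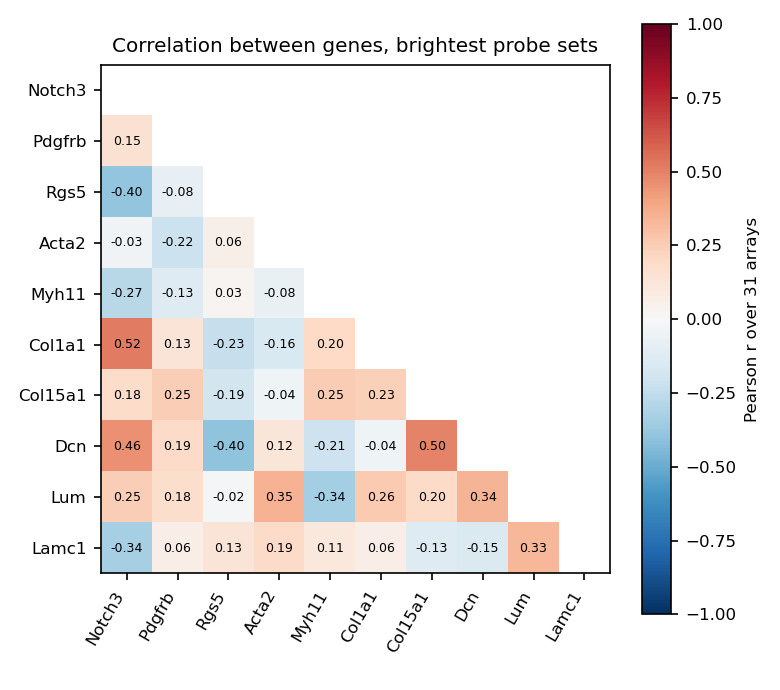
Pearson's r over 31 arrays between the 10 genes, each by its brightest probe set, on log2(intensity + 16) after normalisation. Values run from -0.40 to 0.52, and no pair passes after adjustment over 45 pairs.

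Probe sets of the same gene did not track each other either. Over 8 pairs of tested probe sets of 1 gene, most of them of Rgs5, r ranged -0.48 to 0.46 with a median of -0.07. Of these, 2 passed a permutation test after adjustment over the 8. The permutations shuffled all arrays without regard to label group or array set. The 2 Pdgfrb probe sets had r = 0.46 (rho = 0.33, adjusted permutation p = 0.0391). It fell to 0.30 without the 2 farthest arrays and to 0.21 on deviations from group means. The Rgs5 probe sets 1420940_x_at and 1420941_at, from the same sequence record, had r = -0.48 (rho = -0.48, adjusted permutation p = 0.0391). Their r was -0.60, -0.15 and -0.41 within the sets and -0.56 on deviations from group means. The 2 Col1a1 probe sets had r = -0.32, which did not pass. Each Rgs5, Pdgfrb and Col1a1 value above is therefore that of the named probe set and no consensus of the gene. For Notch3, Lamc1, Dcn, Acta2 and Myh11 only 1 probe set each passed the filter, so their other probe sets were not correlated. Their tested differences are likewise those of 1 probe set.

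The genes whose profiles over the 31 arrays were most like 5 of the members are given as a description, since all arrays share the same 3 sets. For Notch3 they were Layn (r = 0.87), Cbx5 (0.80) and Cdc16 (0.79), and for Dcn they were Prkcb (0.84), Pde4b (0.84) and Zbtb45 (0.80). For Col15a1 they were Zmym2 (0.76), N4bp1 (0.75) and Ccnd3 (0.74). For Rgs5 (1417466_at) they were Abhd5 (0.78), Pnkd (0.76) and Fam131b (0.71), and for Lamc1 they were Dctn5 (0.70), Rad1 (0.66) and Ldhb (0.65). None of these 15 genes is a member of the group.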

How the data were processed

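RNA of 31 samples was hybridised to Affymetrix mouse arrays, 1 per sample, per the labels' protocols. The authors deposited 1 intensity per probe set on a linear scale; the sources used here do not give the summary method, the background correction or any scaling, and the scale and centring of the values are unknown. Of the 45101 probe sets, 34945 have 1 gene symbol in the platform annotation, 932 several, 9160 none listed, and 64 are controls. The intensities were quantile-normalised, 16 was added, log2 was taken, and controls and probe sets above the table's median (39.8 units) on fewer than 2 arrays were left out. Differences were fitted with limma 3.58.1 (R 4.3.3), 1 mean per group over all 31 arrays, with Benjamini-Hochberg adjustment over 24669 probe sets and a threshold of 0.05. The fit was tested on simulated data. Array sets came from Ward clustering cut at a chosen number of 3 sets. Replicate numbers are shared between groups, but deviations from group means correlated with a median r of 0.00066 in same-numbered pairs and -0.0020 in others, so the numbers were not taken as pairs. The 10 genes and the lists of related genes were chosen with earlier results of these data known. Every member and all its probe sets are named; in each comparison the called member probe sets are given, or else the one with the smallest p, and up to 4 called genes of each related list, with Hey2 on activated natural Treg arrays added after its value was seen. The alternatives were no scaling, equal medians, a pseudocount of 1, no filter, 1 probe set per gene, the array set or replicate number as a block, and each array left out; the within-set differences were added after the data were seen.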

Additional observations from a re-analysis of the deposited data

Results flagged for a closer look

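A sample stood far from the others of its group, by Dixon's test of the gap over the range, in 5 of 63 groups of member probe sets examined (7.94%), and chance gives about 1 in 20. Values are log2(intensity + 16) after normalisation. Dcn (1449368_at) had 11.14 on activated T array 1, against 11.84 to 11.93 on the other 3, and that array is the only one of its group in array set 2. Col15a1 had 6.07 on induced Treg array 5, against a nearest value of 5.85, and that array is the only one of its group in array set 3. The other 3 were dim probe sets that failed the filter on low values: Myh11 1418122_at at 4.86 on activated T array 1 (nearest 4.70), Acta2 1444105_at at 4.67 on activated T array 3 (nearest 4.58), and Acta2 1456658_at at 4.72 on natural Treg array 2 (nearest 4.68).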

How the results depend on the processing

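Counts of called member probe sets depended on the scaling of the arrays and on the array set. Over all 10 groups, 3 became 9 as deposited, 5 with equal medians and 1 with the set as a block. For natural Foxp3-delta against conventional T, 1 became 0 as deposited, with a pseudocount of 1, without the filter and with the set block, and 2 with equal medians, 1 probe set per gene and the replicate block. For natural Foxp3-delta against natural Treg, 0 became 1 with equal medians (Dcn, 1.21). For activated T against conventional T, 1 became 2 as deposited, 3 with equal medians and 0 with the set block. For activated natural Treg against natural Treg, 1 became 9 as deposited, 2 with equal medians, 2 with the replicate block and 0 with the set block. For induced Treg against activated T, 1 became 7 as deposited and 0 with the set block, and for IL-2-cultured induced Treg against induced Treg, 0 became 1 without the filter (Myh11 1418122_at, 0.45, adjusted p = 0.00245). With single arrays left out the counts ranged 2 to 4 over all groups, 0 to 1 for natural Foxp3-delta against conventional T, 0 to 2 for activated T against conventional T, for activated natural Treg against natural Treg and for induced Treg against activated T, and stayed 0 in the other 6 comparisons and for the test of IL-2 culture by allele. The 1 reversal was Col15a1 in activated natural Treg against natural Treg, at -0.21 as deposited. The replicate block was run although the numbers do not pair the samples.

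The counts of calls over all tested probe sets moved too. Over all 10 groups 3055 calls became 6869 with equal medians, 254 with the set block and 13406 as deposited. For activated T against conventional T, 1522 (733 higher, 789 lower) became 6603 (5930 and 673), 20 and 5574 (10 and 5564). For activated natural Treg against natural Treg, 3841 (1906 and 1935) became 5097 (3803 and 1294), 49 and 15417 (79 and 15338). For induced Treg against activated T, 14 (9 and 5) became 15 (10 and 5), 9 and 15452 (15451 and 1), and 33 with the replicate block. For natural Foxp3-delta, 37 against conventional T (20 and 17) became 233 (219 and 14), 0 and 0, with 386 under the replicate block and 12 with a pseudocount of 1, and 22 against natural Treg (9 and 13) became 1903 (1768 and 135), 0 and 0, with 831 under the replicate block. For IL-2 culture, 441 of induced Treg (209 and 232) became 802 (98 and 704), 324 and 0, with 143 under the replicate block, and 82 of induced Foxp3-delta (48 and 34) became 17 (5 and 12), 0 and 0. With single arrays left out, these counts ranged 1957 to 4263 over all 10 groups, 199 (without conventional T array 2) to 2267 (without activated T array 1) for activated T, 2181 (without activated natural Treg array 1) to 3380 for activated natural Treg, 1 to 226 for induced Treg against activated T, and 1 to 259 and 0 to 321 for natural Foxp3-delta against conventional T and natural Treg, lowest without natural Foxp3-delta array 2 and highest without array 1. They ranged 11 to 531 and 1 to 18 for IL-2 culture of induced Treg and induced Foxp3-delta. The causes were not tested, and the 6 member probe sets that did not pass the filter were compared only without it.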
